A study of Mus musculus with 20 samples.

Results

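Heat shock proteins and their DnaJ partners were compared between Hdac4KO and WT brains. A probe set, the group of short oligonucleotides that reads out a transcript on the array, was taken as a member if the platform annotation gave it a single gene symbol that began with Dnaj, Hspa, Hspb, Hspd, Hspe, Hsph or Hsp90, or that was Hsf1, Hsf2 or Bag3. The rule found 177 probe sets of 74 genes among 45037 non-control probe sets, where 18193 genes were named by a single symbol. It used names and no measured value, so the genotype difference of the members could be tested. No probe set with the single symbol Hsf1 or Hsp90ab1 was found, so these genes were not analysed here, and 3 probe sets that listed Dnajc19 together with a second symbol were left out. There were 27 genes with 1 probe set and 47 with several, at most 6 for a gene, and probe sets of a gene share their source RNA. Of the members, 126 of 177 exceeded the median of the array in 10 or more arrays, as did 22603 of all probe sets.

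The study asked whether loss of HDAC4, a class IIa histone deacetylase, alters transcription in the neonatal brain. Total RNA of whole brain was profiled on 20 Affymetrix mouse genome arrays, 10 from Hdac4KO and 10 from WT mice at postnatal day 3, with 5 arrays for each labelled sex and genotype. Animals of both genotypes had the strain background B6CBAF1/OlaHsd, and the homozygous knock-outs came from intercrosses of a colony that was kept by mating heterozygous males to B6CBAF1/OlaHsd females. The labels name no driver that would restrict the knock-out to a cell type. The sources do not state which segment of Hdac4 was removed.

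Values were log2 signals, and the median signal of an array lay between 6.26 and 6.32. The mean of Hdac4 itself fell at its 3 probe sets in the arrays labelled Hdac4KO. The log2 differences (Hdac4KO minus WT) were −1.39, −1.19 and −0.46, with adjusted p = 6.28e-07, 9.48e-07 and 0.0198 (limma). At the probe set of −1.39 the highest Hdac4KO array read 7.43 and the lowest WT array 7.54. At that of −1.19 they read 7.35 and 7.36, and at that of −0.46 the groups overlapped. Neuronal markers were high in every array, since the mean log2 signal of 8 of them was 12.56 to 12.66 in Hdac4KO and 12.55 to 12.60 in WT brains. In 3 arrays the sex-linked genes Xist, Eif2s3y and Kdm5d went against the labelled sex. WT replicate 5, labelled male, had a log2 signal of 11.43 for Xist, WT replicate 9, labelled female, had 3.35, and Hdac4KO replicate 10, labelled male, had 9.83 together with 8.60 for the Y-linked gene Eif2s3y. A 3′ minus 5′ signal was computed from the actin and Gapdh control probe sets as a measure of how far the signal leaned toward the 3′ end of transcripts. It averaged 0.216 ± 0.0295 (SD, n = 10) in Hdac4KO and 0.191 ± 0.0311 (SD, n = 10) in WT brains, and 4 Hdac4KO arrays, replicates 3, 8, 9 and 10, lay above every WT array (0.254, 0.240, 0.239 and 0.262).

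Heat shock proteins bind unfolded or aggregated polypeptides. Members of the HSP70 family (Hspa genes) cycle between states of low and high affinity for a client as they hydrolyse ATP, DnaJ proteins deliver clients and stimulate that hydrolysis through their J domain, and HSP110 proteins (Hsph1, Hspa4, Hspa4l) and the product of Bag3 act as nucleotide exchange factors. HSP90 proteins mature signalling proteins that HSP70 hands over, chaperonins of the HSP60 type (Hspd1 with Hspe1) fold proteins inside mitochondria, and small heat shock proteins (Hspb genes) hold aggregation-prone proteins without ATP. Cytosolic stress turns on many of these genes through heat shock factors, and unfolded protein in the endoplasmic reticulum (ER) turns on a separate set that includes Hspa5 and Hsp90b1. Neurons are known to express constitutive members such as Hspa8, Hsp90aa1 and Dnajc5 at high levels.

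The upstream regions of the members were searched for motifs of the cytosolic and the ER stress response. RefSeq promoters of GRCm38.p6 (250 bases before to 50 after the start) were available for 61 of the 74 genes, 78 promoters in all. Both strands were read for GAANNTTC, the core of the heat shock element, and for the ER stress element by its consensus, which do not overlap in the promoters printed here. The heat shock core was in 17 of 78 member promoters (21.8%), against 7.86% of all 32851 promoters. By gene it was in 15 of 61 (24.6%), against 9.04% of all 27025 genes with a promoter. The ER stress element was in 3 of 78 (3.85%), those of Hspa5, Hsp90b1 and Dnajc3, against 0.119% of all promoters. By compartment, the heat shock core was found in 13 of 42 promoters of cytosolic and nuclear members (31.0%) and in 0 of 12 of ER members. It was in 2 of 5 of mitochondrial members (40.0%), those of Hspd1 and Hspe1, which are neighbouring genes on opposite strands. Whether their windows hold the same site was not tested. The ER stress element was in 3 of the 12 ER promoters (25.0%), and the difference between compartments was not tested. Printed here are the promoters of the ER pair whose signal was lower at every probe set, Hspa5 and Hsp90b1, and of Hspa1b, the inducible HSP70 gene. Capitals mark the motif, which is the ER stress element in Hspa5 (chr2:34771840-34772139, plus strand) and, on either strand, in Hsp90b1 (chr10:86705395-86705694, minus strand), and the heat shock core in Hspa1b (chr17:34959189-34959488, minus strand).
Hspa5: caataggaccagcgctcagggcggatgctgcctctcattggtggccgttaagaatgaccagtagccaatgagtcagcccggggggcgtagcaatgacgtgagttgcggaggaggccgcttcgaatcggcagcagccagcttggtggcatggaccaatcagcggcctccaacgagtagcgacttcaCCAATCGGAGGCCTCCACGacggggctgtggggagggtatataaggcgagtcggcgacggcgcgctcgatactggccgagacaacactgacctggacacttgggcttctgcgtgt
Hsp90b1: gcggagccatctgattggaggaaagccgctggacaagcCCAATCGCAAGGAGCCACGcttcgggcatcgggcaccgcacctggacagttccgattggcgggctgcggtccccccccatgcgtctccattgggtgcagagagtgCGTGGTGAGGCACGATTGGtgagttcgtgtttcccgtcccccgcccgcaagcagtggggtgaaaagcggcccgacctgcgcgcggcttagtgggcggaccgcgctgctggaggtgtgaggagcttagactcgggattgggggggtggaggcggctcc
Hspa1b: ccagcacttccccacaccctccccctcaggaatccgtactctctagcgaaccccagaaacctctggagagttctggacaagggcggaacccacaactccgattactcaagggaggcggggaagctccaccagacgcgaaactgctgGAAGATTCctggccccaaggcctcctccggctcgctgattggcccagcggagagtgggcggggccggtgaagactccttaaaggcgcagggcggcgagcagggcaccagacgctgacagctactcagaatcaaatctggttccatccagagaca
Hsp90b1 held 2 copies of the ER stress element in this window and Hspa5 held 1. A match is a match of letters only and says nothing of binding in these brains.

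Few chaperone probe sets differed between genotypes, and those that passed the test were all lower in Hdac4KO brains. With limma and Benjamini-Hochberg adjustment over all 45037 probe sets, 0 of 177 members rose, against 1.05% of all probe sets, and 3 of 177 fell (1.69%), against 1.01% of all probe sets. The 3 were a probe set each of Hsp90b1, Dnajc21 and Hspa4l. At an unadjusted p under 0.05, 15 members (8.47%) were higher and 26 (14.7%) were lower, against 9.93% higher and 8.10% lower over all probe sets. The median log2 difference was −0.012 over the members, of which 99 lay below 0 and 78 above, and 0.0035 over all probe sets. Differences were small, with 2 members beyond 20% in either direction and 98.9% within it, against 97.7% of all probe sets. No member separated the genotypes completely, while all Hdac4KO arrays were under all WT arrays at 0.0333% of the probe sets measured and over them at 0.0444%. In whole brain, fewer cells of a type and less RNA per cell cannot be told apart.

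**Figure D1:**
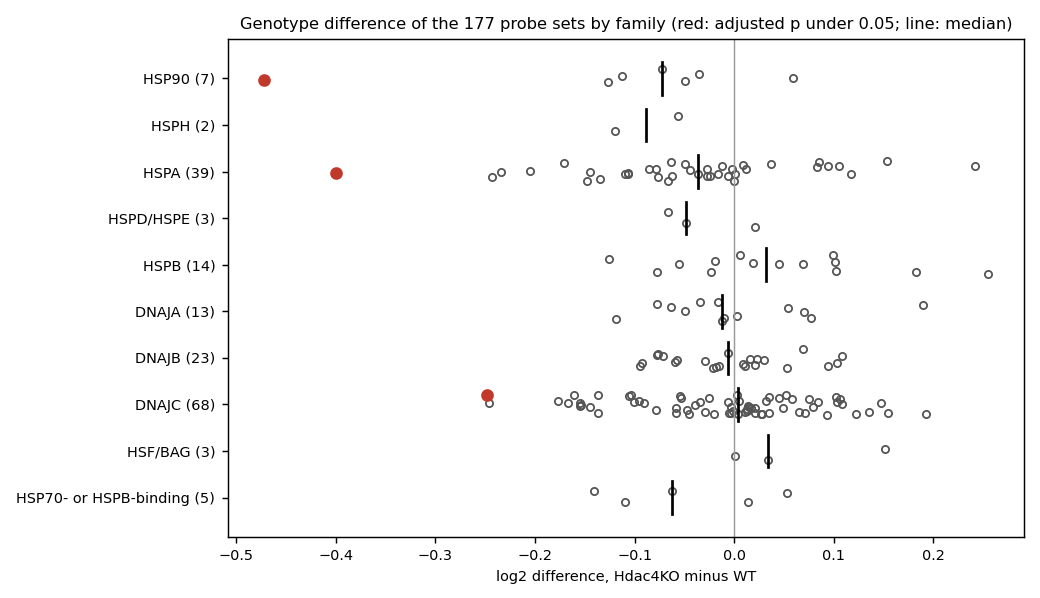
Log2 difference (Hdac4KO minus WT, x axis) of each of the 177 probe sets by family (y axis, number of probe sets in brackets), with the family median as a line and probe sets at adjusted p under 0.05 in red. The 3 red points, all below 0, are in the HSP90, HSPA and DNAJC families, and the medians lie within 0.09 of 0.

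By family, few probe sets passed in any group. Of 39 HSPA probe sets (13 genes), 28 were below 0 (71.8%, against 48.1% of all probe sets), 1 passed the test as lower and the median was −0.04. The 7 HSP90 probe sets (2 genes) had a median of −0.07, with 6 below 0 and 1 called lower. Among the DnaJ families, 13 DNAJA, 23 DNAJB and 68 DNAJC probe sets had medians of −0.013, −0.0066 and 0.0034, and 1 DNAJC probe set was called lower. The 14 HSPB probe sets (8 genes) had a median of 0.03, with 9 above 0 (64.3%, against 51.9% of all probe sets) and none called. Of 24 members with a mean log2 signal above 11, 18 were below 0 (75.0%, median −0.053), against 46.0% of all 2165 such probe sets (median 0.0055). Genes such as Hspa8, Hsp90aa1 and Dnaja1 supplied several of these 24, so they are not independent. They were not counted by gene, and the share was not tested. Of the 47 genes with several probe sets, 29 had probe sets on both sides of 0, 12 had all below and 6 had all above.

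In the ER, both major chaperones were lower at every probe set, and 1 of these probe sets passed the test. Hsp90b1 encodes GRP94, the HSP90 of the ER lumen. At the dimmer of its 2 probe sets the log2 signal ran from a lowest 10.45 through a median 11.01 to a highest 11.27 in Hdac4KO brains, and its lowest, median and highest were 11.20, 11.39 and 11.61 in WT brains. Every Hdac4KO array was below the WT mean and 9 of 10 were below the lowest WT array, so the groups met in a single Hdac4KO array. The means were 10.91 ± 0.27 (SD, n = 10) in Hdac4KO and 11.39 ± 0.13 (SD, n = 10) in WT brains, a log2 difference of −0.47 (SE 0.088, 95% interval −0.66 to −0.29, adjusted p = 0.0162, limma), or a ratio of 0.721. The brighter probe set pointed the same way with a smaller difference, 11.51, 11.70 and 11.87 (lowest, median, highest) in Hdac4KO and 11.73, 11.80 and 11.93 in WT brains. Its log2 difference was −0.13 (SE 0.044, adjusted p = 0.127), which did not pass.

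Hspa5 encodes BiP, the HSP70 of the ER lumen and the sensor-binding chaperone of the unfolded protein response. At its brightest probe set the lowest, median and highest log2 signals were 11.61, 11.72 and 11.79 in Hdac4KO and 11.77, 11.80 and 11.90 in WT brains. All 10 Hdac4KO arrays were below the WT mean, and 8 were below the lowest WT array. The log2 difference was −0.11 (SE 0.030, 95% interval −0.17 to −0.05, adjusted p = 0.0544, limma), just outside the threshold, and the methods' t-test on the same values passed it (adjusted p = 0.0332). The other 2 probe sets of Hspa5 gave −0.14 each (adjusted p = 0.0732 and 0.219). Hspa13, an atypical HSP70 of the microsomal lumen, was below 0 at its 4 probe sets, with −0.23 (SE 0.062, adjusted p = 0.0501) at the dimmest and −0.04 (adjusted p = 0.538) at the brightest.

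**Figure D2:**
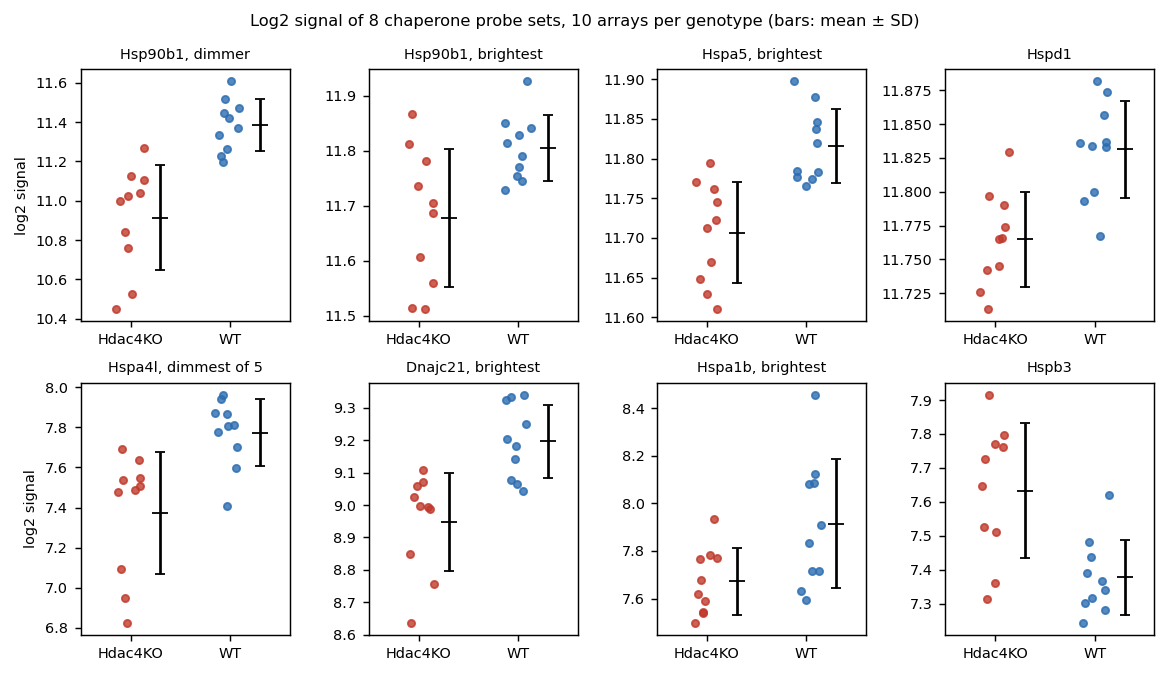
Log2 signal (y axis) of 8 chaperone probe sets in 10 Hdac4KO and 10 WT arrays (points), with mean and SD as bars. At the dimmer Hsp90b1 probe set 9 of 10 Hdac4KO arrays are below all WT arrays, while at Hspa1b and Hspb3 the genotypes overlap in more arrays.

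The DnaJ proteins of the ER, of which those in the lumen serve BiP, lay on both sides of 0 and none passed. Dnajb9 (ERdj4) averaged 10.36 ± 0.08 (SD, n = 10) in Hdac4KO and 10.34 ± 0.05 (SD, n = 10) in WT brains, a log2 difference of 0.02 (adjusted p = 0.791). Dnajb11 (ERdj3), a cochaperone that holds nascent clients, differed by 0.01 (adjusted p = 0.901), and the brightest probe set of Dnajc10 (ERdj5), a reductase of misfolded proteins, by 0.05 (adjusted p = 0.397). Dnajc3 (p58IPK), whose promoter shares the ER stress element, had a brightest probe set that differed by −0.15 (SE 0.076, adjusted p = 0.294), where the Hdac4KO arrays spread more (SD 0.24) than the WT arrays (SD 0.08). Dnajb14, an ER-membrane protein whose J domain faces the cytosol and works with Hspa8, gave −0.09 (adjusted p = 0.537) at its brighter probe set and 0.10 (adjusted p = 0.0992) at the other. In all, 37 probe sets of 13 ER members had a median of −0.03, with 21 below 0, 1 called lower and none higher.

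Other folding factors of the ER were counted for context, each by its brightest probe set. Of 23 measured genes, 1 fell and 1 rose, against 0.517% and 1.45% of all genes, and the median was −0.04 against 0.012 over all genes. Manf, a secreted factor induced by ER stress, fell to 10.58 ± 0.07 (SD, n = 10) in Hdac4KO against 10.73 ± 0.05 (SD, n = 10) in WT brains, a log2 difference of −0.15 (SE 0.033, adjusted p = 0.0226, limma). Ero1a, the oxidase that recharges protein disulfide isomerase, rose by 0.18 (SE 0.047, adjusted p = 0.0458). The disulfide isomerase Pdia4 (−0.15, adjusted p = 0.120), Sdf2l1, a partner of the BiP cycle (−0.14, adjusted p = 0.113), and Creld2 (−0.11, adjusted p = 0.0988) were below 0 without passing. Of the 23 genes, 15 were below 0 and 8 above, with 7 lower and 4 higher at an unadjusted p under 0.05 (6.19% and 12.8% of all genes). Over all 56 probe sets of these genes, 1 rose and 3 fell.

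**Figure D3:**
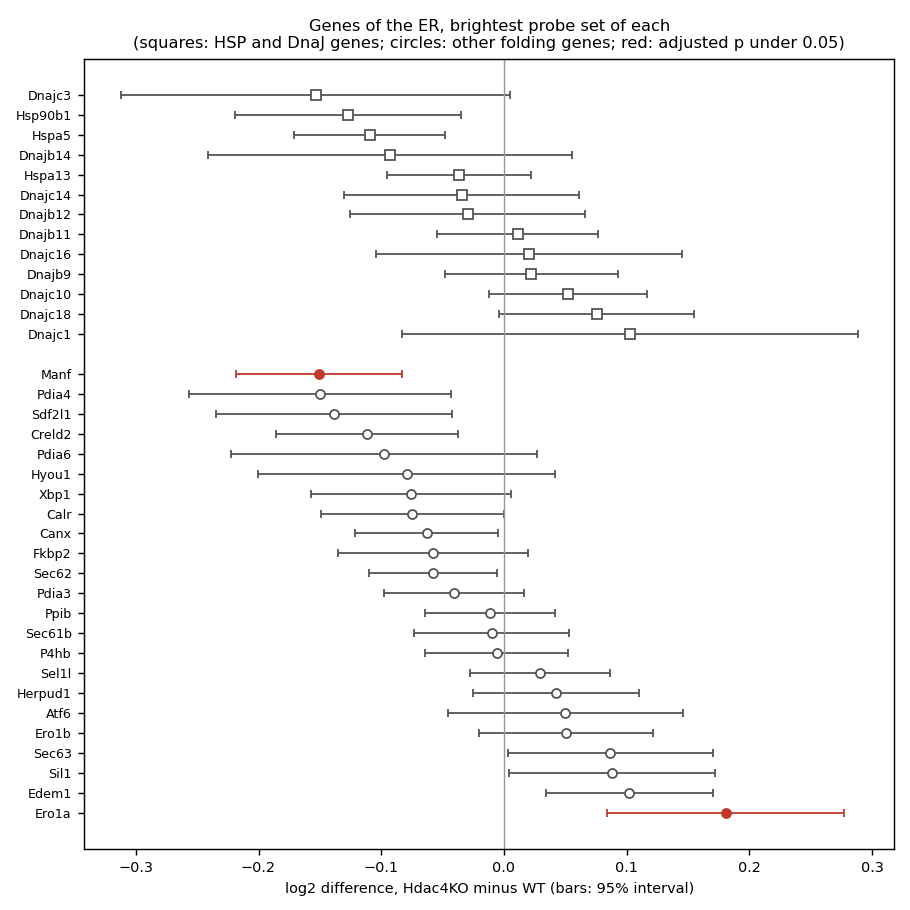
Log2 difference (Hdac4KO minus WT, x axis) with 95% interval for ER genes (y axis), each at its brightest probe set, with HSP and DnaJ members as squares, other folding factors as circles and adjusted p under 0.05 in red. Manf at −0.15 and Ero1a at 0.18 are red, and the members range between −0.15 and 0.10.

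Markers of other cell types are given beside the chaperones. Of 6 choroid plexus markers 5 were below 0 (median −0.13), and the secreted transport protein Ttr fell by 0.14 (adjusted p = 0.0420, limma). The mean signal of that list was 7.72 to 8.03 in Hdac4KO and 7.77 to 8.24 in WT arrays, and Kl was its dimmest gene at a mean of 4.92. Of 7 microglial markers 6 were above 0 (median 0.13, mean signal 8.10 to 8.60 in Hdac4KO and 8.11 to 8.40 in WT arrays), with none called. By brightest probe set, 57.2% of all genes were above 0 and 42.8% below. At an unadjusted p under 0.05 (limma), 3 microglial markers were higher, against 12.8% of all genes. Of the choroid plexus markers 2 were lower, against 6.19% of all genes. At the brightest probe set of each gene, none of the listed markers of neurons, astrocytes, oligodendrocyte lineage, meninges, vessels, erythroid cells, muscle or spermatids passed. Over every probe set of these genes, the protamine gene Prm1 rose by 1.70 and 1.96 (adjusted p = 1.81e-08 and 2.76e-07) at 2 of 10 spermatid probe sets. Of 20 neuronal probe sets 2 fell, those of Slc17a6 (−0.52, adjusted p = 0.0182) and Syt1 (−0.38, adjusted p = 0.0310). The brightest probe sets of these neuronal genes differed by −0.03 (Slc17a6, adjusted p = 0.594) and 0.14 (Syt1, adjusted p = 0.0504). Prm1 was picked by the study from these arrays, so its rise is not independent evidence. The part of these cell types in the chaperone differences was not tested.

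Of the 4 Hdac4KO arrays of high 3′ minus 5′ signal, 3 were the lowest Hdac4KO arrays at the called probe sets. Hdac4KO replicates 8, 9 and 10 were the 3 lowest Hdac4KO arrays at each of the 3 called probe sets, at 11 of 177 members (6.21%) and at 3.15% of all probe sets. This count was not planned and is description only. Hdac4KO replicate 3 was not among the lowest, at 10.997 for Hsp90b1, 8.9865 for Dnajc21 and 7.6365 for Hspa4l. With the 3′ minus 5′ signal as a covariate, 0 members passed, against 0.0511% of all probe sets higher and 0.0444% lower. The log2 difference was then −0.37 (adjusted p = 0.0802, limma) at the dimmer Hsp90b1 probe set and −0.13 (adjusted p = 0.0823) at the brightest of Hspa5. Without the 4 Hdac4KO arrays above every WT array in that measure, a comparison chosen after seeing the data, again 0 members passed. Of all probe sets, 0.0266% were then higher and 0.0266% lower. The log2 differences were −0.32 (adjusted p = 0.0962, limma) for Hsp90b1 and −0.15 (adjusted p = 0.0997) for Hspa5. Without these arrays Hsp90b1 was at −0.32 against −0.47 with all arrays, Dnajc21 at −0.15 against −0.25 and Hspa4l at −0.23 against −0.40. Each of these differences was thus smaller, while Hspa5 was at −0.15 against −0.11, and all kept their sign.

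In the cytosol and nucleus, 86 probe sets of 35 genes had a median of −0.011, with 2 called lower and none higher. Hspa8, the constitutive HSP70 that also uncoats clathrin vesicles, was below 0 at its 4 probe sets. At the brightest the log2 signal was 13.65, 13.74 and 13.83 (lowest, median, highest) in Hdac4KO and 13.70, 13.82 and 13.89 in WT brains. The Hdac4KO arrays were below the WT mean in 9 of 10, and the log2 difference was −0.08 (SE 0.028, 95% interval −0.14 to −0.02, adjusted p = 0.143, limma). Hspa2, an HSP70 known for its role in spermatogenesis and also present in brain, was 0.15 higher (SE 0.060, adjusted p = 0.170), with 7.59, 7.85 and 8.13 in Hdac4KO and 7.62, 7.69 and 7.86 in WT brains. Neither passed the test.

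The exchange factors of the HSP110 type gave 1 call, at a single probe set. Hspa4l was called lower at the dimmest of its 5 probe sets. The lowest, median and highest log2 signals there were 6.82, 7.50 and 7.69 in Hdac4KO and 7.41, 7.81 and 7.96 in WT brains, and 3 Hdac4KO arrays, replicates 8, 9 and 10, accounted for all values under the lowest WT array. The log2 difference was −0.40 (SE 0.10, adjusted p = 0.0442, limma), whereas its 4 brighter probe sets gave −0.03, −0.02, 0.11 and −0.00042 (adjusted p = 0.799, 0.827, 0.215 and 0.998). The call held in 12 of 33 alternatives, and those that lost it included the methods' t-test (adjusted p = 0.0616), Welch's version of it (0.0779) and the fit with sex as covariate (0.0511). Among single arrays left out, it remained without any 1 of WT replicates 9 and 10 and Hdac4KO replicates 1, 2, 3 and 4, and it was lost without any 1 of the other 14 arrays (adjusted p up to 0.0857). Hsph1 (HSP105) was below 0 at both probe sets, by −0.06 (adjusted p = 0.434) at the brighter and −0.12 (SE 0.037, adjusted p = 0.0861) at the other. For Hspa4 the brightest probe set ran over 11.26, 11.38 and 11.47 in Hdac4KO and 11.33, 11.40 and 11.47 in WT brains, a difference of −0.03 (adjusted p = 0.697).

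**Figure D4:**
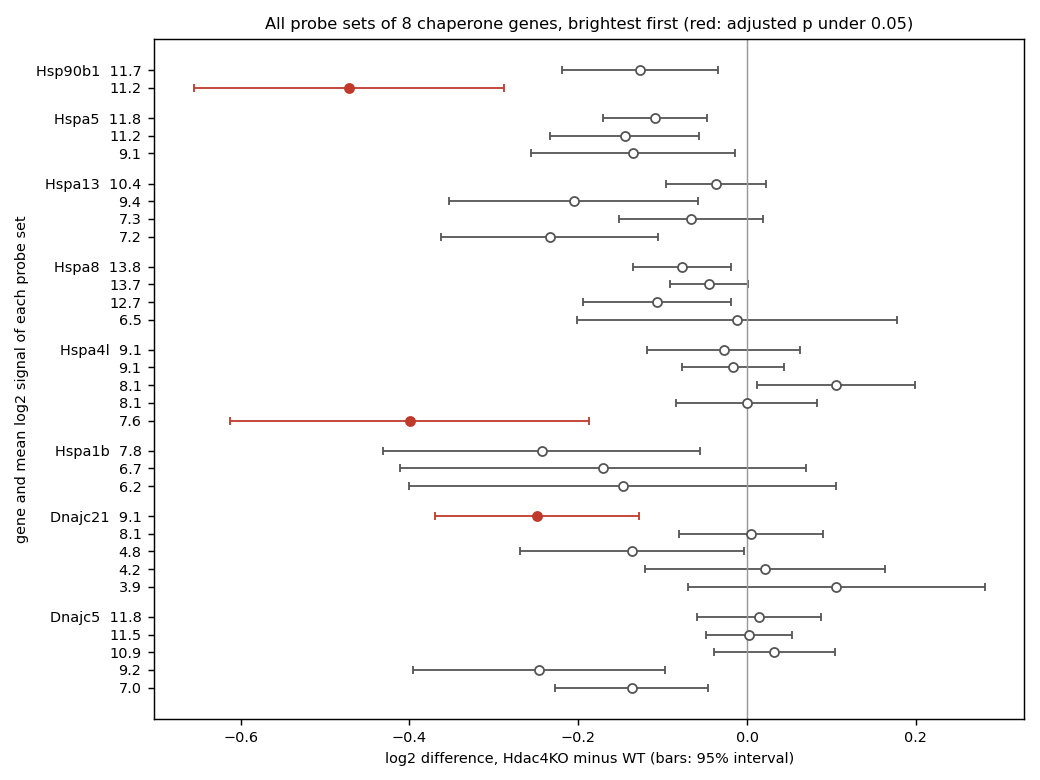
Log2 difference (Hdac4KO minus WT, x axis) with 95% interval for every probe set of 8 chaperone genes, each row labelled with its mean log2 signal and ordered within a gene by it (y axis), and adjusted p under 0.05 in red. All probe sets of Hspa5, Hsp90b1, Hspa13, Hspa8 and Hspa1b are below 0, while those of Hspa4l, Dnajc21 and Dnajc5 fall on both sides.

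Hsp90aa1, the stress-inducible cytosolic HSP90, was not called at any probe set. Its brightest probe set read 13.21, 13.34 and 13.40 (lowest, median, highest) in Hdac4KO and 13.29, 13.37 and 13.49 in WT brains, a log2 difference of −0.05 (SE 0.031, adjusted p = 0.432). Of its other 4 probe sets, the smallest p belonged to a difference of −0.07 (adjusted p = 0.225). At the third brightest, Hdac4KO arrays ran from 12.67 to 13.30 and WT arrays from 13.14 to 13.22. Hdac4KO replicates 8, 9 and 10 were the lowest there. HSP90 cochaperones, which load clients and set the pace of the HSP90 cycle, gave 0 calls in 15 measured genes (median −0.0027), with Chordc1 at −0.11 (adjusted p = 0.0740) and Sugt1 at −0.13 (adjusted p = 0.0798). The TRiC chaperonin, which folds actin and tubulin, and prefoldin gave 0 calls in 15 genes (median −0.0055). The HSP70 exchange factors and regulators outside the symbol rule, such as the Bag genes and Stub1, gave 0 calls in 14 genes (median 0.013).

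Of the genes that heat shock factors are best known to induce, none passed the test. Hspa1a and Hspa1b encode the near-identical inducible HSP70 proteins, and their probe sets may share signal. Hspa1b read 7.50, 7.65 and 7.93 (lowest, median, highest) in Hdac4KO and 7.60, 7.87 and 8.46 in WT brains at its brightest probe set, with 9 of 10 Hdac4KO arrays below the WT mean and a log2 difference of −0.24 (SE 0.090, 95% interval −0.43 to −0.06, adjusted p = 0.152, limma). Hspa1a read 7.21, 7.47 and 7.74 in Hdac4KO and 7.32, 7.56 and 7.89 in WT brains, a difference of −0.11 (SE 0.061, adjusted p = 0.376). WT replicate 5 was the highest array at both genes, and the ranges of the genotypes overlapped at both. Dnajb1 (HSP40) lay at 10.39 ± 0.08 (SD, n = 10) in Hdac4KO and 10.32 ± 0.06 (SD, n = 10) in WT brains at its brighter probe set, a difference of 0.07 (adjusted p = 0.294), and Hspb1 (HSP25 in mouse) at 8.18 ± 0.16 (SD, n = 10) in Hdac4KO and 8.18 ± 0.14 (SD, n = 10) in WT brains, a difference of 0.0062 (adjusted p = 0.976) whose sign turned with quantile normalization and with the 3′ minus 5′ covariate. At the dimmer Dnajb1 probe set the difference was −0.02 (adjusted p = 0.775, limma). The testis-specific relative Hspa1l was dim and differed by −0.02 (adjusted p = 0.899), a sign that turned with the 3′ minus 5′ covariate.

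Across the 20 arrays, the deviations from the genotype mean of Hspa1a, Hspa1b, Hsph1, Dnajb1 and Hspb1 were compared in 10 pairs, with 100000 permutations of the arrays within genotype. Hspa1a and Hspa1b varied together, with Pearson r = 0.786 (p = 1e-05, the smallest these permutations can give, adjusted p = 0.0001) and Spearman rho = 0.725 (p = 0.00047, adjusted p = 0.0047). Since their probe sets may share signal, r cannot show that separate transcripts varied together. Without the 2 arrays farthest from the median of Hspa1a r was 0.612, and within genotypes it was 0.747 in Hdac4KO and 0.851 in WT brains. Hsph1 and Hspb1 gave r = 0.538 (adjusted p = 0.104) and rho = 0.608 (adjusted p = 0.0403), and r = 0.399 without the 2 farthest arrays. Hspa1a and Hsph1 ran opposite to each other, r = −0.450 (adjusted p = 0.152) and rho = −0.537 (adjusted p = 0.0558), which did not pass. Of the other 7 pairs none had an adjusted p under 0.05 by either measure.

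**Figure D5:**
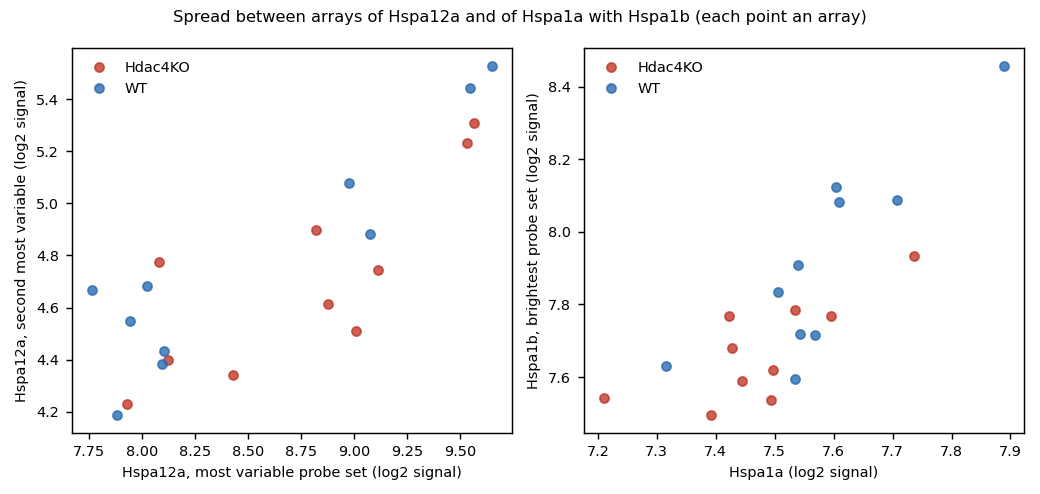
Log2 signals of pairs of probe sets in 10 Hdac4KO and 10 WT arrays, 1 point per array. On the left the most (x axis) and second most variable (y axis) probe sets of Hspa12a rise together, and on the right Hspa1a (x axis) and Hspa1b (y axis) do so, with WT replicate 5 highest at 7.89 and 8.46.

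The regulators followed neither direction. Hsf2, a heat shock factor active in the developing brain, read 6.87, 6.97 and 7.23 (lowest, median, highest) in Hdac4KO and 6.77, 7.01 and 7.19 in WT brains at its brighter probe set, a log2 difference of 0.00059 (adjusted p = 0.998) with no stable sign. Its dimmer probe set differed by 0.15 (adjusted p = 0.505). Bag3, which links HSP70 to small heat shock proteins and selective autophagy, read 6.95, 7.18 and 7.32 in Hdac4KO and 7.05, 7.12 and 7.29 in WT brains, a difference of 0.03 (SE 0.044, adjusted p = 0.749). Hspbp1, an HSP70 exchange factor, differed by 0.05 (adjusted p = 0.509), and Hspbap1, which binds a small heat shock protein, by −0.14 (adjusted p = 0.277).

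Mitochondrial chaperones were divided, with none called among 17 probe sets of 7 genes (median −0.0025). Hspd1 (HSP60) had little spread, with 11.71, 11.77 and 11.83 (lowest, median, highest) in Hdac4KO against 11.77, 11.84 and 11.88 in WT brains. All 10 Hdac4KO arrays were below the WT mean, yet the log2 difference was −0.07 (SE 0.024, 95% interval −0.12 to −0.02, adjusted p = 0.135, limma), a ratio of 0.955. The methods' t-test passed it (adjusted p = 0.0379). Its partner Hspe1 (HSP10) read 11.36, 11.57 and 11.74 in Hdac4KO and 11.60, 11.64 and 11.71 in WT brains, a difference of −0.05 (adjusted p = 0.556). At the other Hspe1 probe set the difference was 0.02. Hspa9 (mortalin), the HSP70 of the matrix, had 5 probe sets. Its brightest lay at 10.56 ± 0.03 (SD, n = 10) in Hdac4KO and 10.57 ± 0.03 (SD, n = 10) in WT brains. The difference there was −0.0025 (95% interval −0.05 to 0.04, adjusted p = 0.973), and the other Hspa9 probe sets are not listed here.

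Of the 4 DnaJ genes of the mitochondrion, 3 were above 0 at their brightest probe set, as were 57.2% of all genes. Dnajc11, a protein tied to the organisation of the cristae, was above the WT mean in 10 of 10 Hdac4KO arrays at its brightest probe set, with a log2 difference of 0.14 (SE 0.042, adjusted p = 0.0899, limma). Dnajc30 gave 0.08 (adjusted p = 0.181) and Dnaja3 (TID1), the partner of mortalin, 0.07 (adjusted p = 0.462), and Dnajc15, of the inner membrane, −0.04 (adjusted p = 0.587), and none of these passed. Among 12 other mitochondrial folding and protease genes, 10 were above 0 (median 0.06, against 0.012 over all genes). The protease subunit Spg7 (paraplegin) rose by 0.12 (SE 0.032, adjusted p = 0.0465), against 1.45% of all genes called higher, and the import motor anchor Timm44 was at 0.12 (adjusted p = 0.0527).

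Small heat shock proteins held the largest positive difference of all members. Hspb3 is a muscle-enriched small heat shock protein that pairs with HSPB2. It was among the genes the study picked from these arrays for qPCR, so its difference is not independent evidence. By qPCR it was modestly higher in Hdac4KO brains, per the paper, where it is printed as Hsbp3. Its lowest, median and highest log2 signals were 7.31, 7.69 and 7.92 in Hdac4KO and 7.24, 7.35 and 7.62 in WT brains, with 6 Hdac4KO arrays above the highest WT array and 2 below the WT mean. The log2 difference was 0.26 (SE 0.068, 95% interval 0.11 to 0.40, adjusted p = 0.0527, limma), a ratio of 1.19 that did not pass. Hspb8, the partner of BAG3, was above 0 at its 3 probe sets, with 6.58, 6.89 and 7.19 in Hdac4KO and 6.53, 6.71 and 6.95 in WT brains at the brightest (difference 0.10, adjusted p = 0.438) and 0.18 (SE 0.063, adjusted p = 0.120) at the second. Hspb2 and Hspb6 both gave 0.10 (adjusted p = 0.432 and 0.483). Below 0 were the dim Hspb7 and Hspb9, each at −0.02 at its brightest probe set, and Hspb11, a subunit of intraflagellar transport also called IFT25, at −0.13 (SE 0.040, adjusted p = 0.0939), with 9 of 10 Hdac4KO arrays below the WT mean. Among 7 related genes outside the rule, including the lens and glial small heat shock protein Cryab (0.17, adjusted p = 0.304) and Clu, none passed.

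In the DNAJA family, whose members other than the mitochondrial Dnaja3 carry clients to cytosolic HSP70, none of 13 probe sets passed. Dnaja1, a farnesylated partner of Hspa8, read 12.28, 12.35 and 12.40 (lowest, median, highest) in Hdac4KO against 12.39, 12.42 and 12.44 in WT brains at its brightest probe set. There 7 Hdac4KO arrays were below the lowest WT array, with a log2 difference of −0.06 (SE 0.023, adjusted p = 0.143, and 0.0332 by the methods' t-test), whereas its second probe set differed by 0.0026 (adjusted p = 0.975) and its dimmest by −0.12 (adjusted p = 0.317). The brightest Dnaja4 probe set differed by 0.19 (SE 0.084, adjusted p = 0.233) and the others by 0.05 and −0.08. Dnaja2 differed by 0.08 (adjusted p = 0.306) at the probe set with the smallest p, and by −0.01, −0.01 and −0.05 at the other 3, of which the first is the brightest.

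In the DNAJB family none of 23 probe sets of 13 genes passed. Dnajb6, a strong suppressor of polyglutamine aggregation, read 12.46, 12.48 and 12.54 (lowest, median, highest) in Hdac4KO and 12.43, 12.46 and 12.51 in WT brains, a log2 difference of 0.02 (95% interval −0.02 to 0.07, adjusted p = 0.666). Dnajb2 (HSJ1), a neuronal protein that directs clients to the proteasome, read 9.19, 9.24 and 9.40 in Hdac4KO and 9.15, 9.36 and 9.44 in WT brains, a difference of −0.06 (adjusted p = 0.460). Dnajb12, the ER-membrane partner of Dnajb14, gave −0.03 (adjusted p = 0.798, limma) at its brighter probe set. The dimmer one, with the smaller p, gave −0.09 (adjusted p = 0.332).

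The DNAJC family, the most varied, held the last of the 3 calls. Dnajc21, known in human cells for a role in the maturation of the large ribosomal subunit, fell at the brightest of its 5 probe sets. Its lowest, median and highest log2 signals were 8.63, 8.99 and 9.11 in Hdac4KO and 9.04, 9.19 and 9.34 in WT brains. All 10 Hdac4KO arrays were below the WT mean and 7 below the lowest WT array, with a difference of −0.25 (SE 0.058, 95% interval −0.37 to −0.13, adjusted p = 0.0317, limma). The second probe set, at a mean of 8.09, differed by 0.0046 (adjusted p = 0.973), and the 3 dim ones, at means of 4.78, 4.22 and 3.85, gave −0.14, 0.02 and 0.11 with none called. The call held in 23 of 33 alternatives and, among single arrays left out, was lost without any 1 of WT replicates 2, 3, 4 and 5 and Hdac4KO replicates 8 and 9 (adjusted p between 0.0556 and 0.0638). Dnajc17, a spliceosome-associated protein, gave 0.19 (SE 0.060, adjusted p = 0.0896) at its second probe set and −0.10 (adjusted p = 0.306) at the brightest. Dnajc2, a ribosome-associated cochaperone, gave −0.18 (SE 0.059, adjusted p = 0.113) at the brightest of its probe sets and −0.00075 (adjusted p = 0.995) at the next.

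Synaptic and endocytic DnaJ proteins showed the same split between probe sets. Dnajc5 encodes the cysteine string protein, which keeps SNARE proteins folded on synaptic vesicles. Its brightest probe set read 11.66, 11.87 and 11.93 (lowest, median, highest) in Hdac4KO and 11.73, 11.83 and 11.85 in WT brains, a log2 difference of 0.01 (SE 0.035, adjusted p = 0.882), and the next 2 differed by 0.0027 and 0.03. The 2 dimmest gave −0.25 (SE 0.072, adjusted p = 0.0712) and −0.14 (SE 0.044, adjusted p = 0.0992), without passing. Dnajc6 (auxilin), which recruits HSP70 to clathrin coats in neurons, read 11.67, 11.72 and 11.86 in Hdac4KO and 11.60, 11.67 and 11.70 in WT brains at its brightest probe set. All 10 Hdac4KO arrays were above the WT mean, with a difference of 0.06 (SE 0.026, 95% interval 0.01 to 0.12, adjusted p = 0.183). The second Dnajc6 probe set differed by −0.10 (adjusted p = 0.300), with 8 of 10 Hdac4KO arrays below the WT mean, and the 2 dimmer ones by 0.09 and −0.14. Dnajc13 (RME-8), which acts on endosomes, differed by −0.0054 (adjusted p = 0.952).

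Members known from testis or cilia were mostly dim, with 1 of 9 probe sets, that of Hspb11, brighter than the array median in 10 or more arrays, and none was called. There were 4 genes of the set, with 5 probe sets, on chromosome 1 with Hdac4. Dnajb3, a testis gene, lies 31 array genes from Hdac4 and differed by 0.09 (adjusted p = 0.452), and Dnajb2 lies 119 genes away. Hspe1 and Hspd1 lie 260 and 261 genes away and were described above. None of the 5 probe sets was called.

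The genotype difference was then taken within each labelled sex. In females 0 and in males 0 members passed, against 0.0400% and 0.0377% of all probe sets. At an unadjusted p under 0.05 there were 14 members in females (7.91%, against 11.2% of all probe sets) and 27 in males (15.3%, against 12.5%). The dimmer Hsp90b1 probe set gave log2 differences of −0.47 in females and −0.48 in males, and the brightest of Hspa5 gave −0.13 in females and −0.09 in males. For Hspb3 they were 0.37 in females and 0.14 in males (unadjusted interaction p = 0.0813). No interaction passed (lowest adjusted p of a member 0.917), and 3.95% of members had an unadjusted interaction p under 0.05, against 5.35% of all probe sets. The 3 arrays at odds with their labelled sex enter these values as labelled.

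Most members varied little between brains of a genotype. The median within-genotype SD was 0.113 log2 units over the members and 0.121 over all probe sets. A clear exception was Hspa12a, a distant HSP70 relative expressed in brain, at 2 of its 4 probe sets. At the first replicates 1 to 10 read 9.01, 8.08, 8.12, 9.53, 8.82, 9.57, 7.93, 8.88, 9.12 and 8.43 in Hdac4KO and 8.98, 7.94, 9.07, 8.03, 7.88, 7.76, 8.10, 9.55, 9.65 and 8.10 in WT brains. High and low arrays occurred in both genotypes, and the SD ranked at the 99.6th percentile of all probe sets. The second ranked at the 98.8th percentile, and Hdac4KO replicates 4 and 6 and WT replicates 8 and 9 were highest at both. The genotype difference was 0.24 (95% interval −0.32 to 0.81, adjusted p = 0.700) at the first, while the brightest Hspa12a probe set, with an SD of 0.12 in Hdac4KO and 0.14 in WT brains, gave 0.09 (adjusted p = 0.457).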

How the data were processed

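Total RNA (200 ng per array) from whole brain was labelled with the 3′ IVT Express kit and hybridized to Affymetrix mouse genome arrays, and arrays above a quality limit were excluded, per the study's methods. The authors deposited log2 signals, 1 per probe set and array. How probes were summarised and normalized is not stated in the sources, and similar array medians show that values were already scaled between arrays. Depth on an array is limited by the number of probes and arrays. Symbols came from the platform annotation, in which 932 probe sets have several symbols and were not named, and all 74 member genes matched RefSeq by gene ID.

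Hdac4KO was compared with WT using limma 3.58.1 (lmFit, eBayes) in R 4.3.3 on the 45037 probe sets left after 64 controls were removed, with Benjamini-Hochberg adjustment over all of them and a threshold of 0.05. The script was tested on simulated data. Permutations and counts were run in Python 3.11.15 (scipy 1.17.1, numpy 2.4.6, pandas 2.3.3). Levels of different probe sets are not comparable, and the brightest is the probe set with the highest mean. Compartments were assigned from general knowledge of each protein.

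The members and gene lists were chosen with earlier results of these data known. Named with values were every probe set that passed, the brightest probe set of 26 fixed genes (Hspb3 because the study picked it for qPCR on these arrays), of which Hsf1 and Hsp90ab1 were not analysed here, and the 3 genes of smallest p in each family. Some other probe sets of named genes and further members of a compartment were added as description.

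Alternatives were the methods' t-test, Welch's version of it, sex or the 3′ minus 5′ signal as covariate, array weights, a block for the replicate number, eBayes with trend and robust settings, quantile normalization, centring on the array median, a filter on dim probe sets, 1 probe set per gene, leaving out each array, arrays that stood apart, or members on chromosome 1. Leaving out the 4 Hdac4KO arrays of highest 3′ minus 5′ signal was chosen after seeing the data.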

Additional observations from a re-analysis of the deposited data

Results flagged for a closer look

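In 4 of 82 groups of 10 arrays, a single array stood far from the rest of its genotype by Dixon's ratio (gap to the nearest array over the whole range), and chance flags about 1 in 20 groups. Dnajc6 in Hdac4KO replicate 8 was the highest of its genotype at 11.859, with the next array at 11.769 (gap 0.484 of the range). Hspe1 in the same array was the lowest Hdac4KO value at 11.36, with the next at 11.542 (0.475). Bag3 in WT replicate 2 was the highest WT value at 7.2896, with the next at 7.1712 (0.492). Hspb11 in WT replicate 8 was the lowest WT value at 8.5234, with the next at 8.6768 (0.534).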

How the results depend on the processing

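Against 0 members higher and 3 lower, the number higher was 3 with dim probe sets left out and 1 with trend and robust eBayes, array weights or 1 probe set per gene, where it was Hspb3. The number lower was 5 with the methods' t-test (Hspa4l was lost and Hspa5, Dnaja1 and Hspd1 were gained), 9 with dim probe sets left out, 9 with trend and robust eBayes, 7 with array weights, 0 with the 3′ minus 5′ signal as covariate, 1 without the 3 arrays at odds with their sex label and 0 without the 4 Hdac4KO arrays of highest 3′ minus 5′ signal. Over all probe sets the covariate left 23 higher and 20 lower, and leaving out those 4 arrays left 12 and 12. The shares over all probe sets moved as well, from 1.05% higher and 1.01% lower. They were 1.35% and 0.873% with the methods' t-test, 1.7% and 1.38% with trend and robust eBayes, and 1.75% and 1.58% with array weights. With dim probe sets left out, they were 4.41% and 3% of 22603, with 126 members tested. With 1 probe set per gene, they were 2.12% and 0.726% of 18193 genes, with 74 members tested. Leaving out 1 array gave 0 to 3 higher (3 without Hdac4KO replicate 2, 2 without WT replicate 9, 1 without WT replicate 1 or Hdac4KO replicate 3) and 1 to 8 lower (8 without Hdac4KO replicate 2, 5 without Hdac4KO replicate 1, 1 without any of WT replicates 2, 3, 4 and 5 and Hdac4KO replicates 8 and 9). Without Hdac4KO replicate 2, 2.2% of all probe sets were higher and 1.61% lower. The dimmer Hsp90b1 probe set passed in 31 of 33 alternatives, including all 20 that left out 1 array, Dnajc21 in 23 and Hspa4l in 12. With the replicate number as a block, 0 members were higher and 5 lower, and 308 and 640 of all probe sets. The labels state no pairing by number. Of same-numbered pairs, 1 of 10 deviated together (r above 0.1), and 0 Hdac4KO arrays were closest to the WT array of their number. At the called probe sets the block lowered the adjusted p (limma), to 0.00105 for Hsp90b1, 0.0149 for Dnajc21 and 0.0114 for Hspa4l. Whether arrays of a number shared an order or batch was not tested.

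Of 41 named probe sets 37 kept their sign under every alternative run. The 4 that did not were near 0 and none passed. Hsf2 was −0.0108 with the 3′ minus 5′ covariate, −0.00569 with quantile normalization, −0.000198 with median centring, −0.00096 with array weights, −0.0300 without WT replicate 8 and Hdac4KO replicate 10, and −0.0264 to 0.0225 leaving out 1 array. Hspa1l was 0.0169 with the covariate, 0.00487 without the 3 arrays at odds with their sex label, and −0.0504 to 0.012 leaving out 1 array. Hspa9 ran over −0.00801 to 0.00379 leaving out 1 array. Hspb1 was −0.0111 with the covariate, −0.0024 with quantile normalization, −0.0335 without the 4 Hdac4KO arrays of highest 3′ minus 5′ signal, and −0.0284 to 0.0317 leaving out 1 array. The cause of these changes was not tested.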
